A study of Mus musculus with 1 sample.

Results

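Eosinophils are white blood cells that carry their toxic cargo in granules, and the genes described here encode that cargo and the receptor that drives the lineage. They are Prg2 (major basic protein, the crystal core of the granule), Prg3 (its homologue), Epx (eosinophil peroxidase), Ear6 (an eosinophil-associated ribonuclease) and Il5ra (the ligand-binding chain of the interleukin-5 receptor). The members were chosen by gene symbol, and all 5 were found among the 32285 genes of the count matrix. The data were 1 single-cell RNA-seq library of lineage-negative, Kit-positive marrow cells of C57BL/6 mice, which is replicate 1 of the control group of a study of the chromatin regulator BRD9. The control carried Brd9fl/fl, floxed Brd9 with no Cre named in its labels, and was given pIpC, an inducer of interferon, at 20 mg/kg in 3 doses, every other day, with marrow taken 8 weeks later. The sample's labels name a CD45.2(+) donor, a CD45.1(+) CD45.2(-) recipient and a transplant, with pIpC started 4 weeks after it, whereas the series text places pIpC in primary mice 4 weeks after birth. Which of them applies was not settled, nor was the number of mice behind the library. Cells with deleted Brd9 are not analysed here.

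In marrow, eosinophils arise from progenitors that have switched on the granule genes before the granules are complete, and these genes are among the most abundant transcripts of the committed cell. The transcription factors GATA-1 and GATA-2 and the C/EBP family, C/EBPα early and C/EBPε later, are known to act together in this choice, while GATA-2 with C/EBPα is also known from basophils and C/EBPε from neutrophil granule formation. The question was therefore which cells of the stem and progenitor fraction held the granule transcripts, whether those cells also held Gata1, Gata2, Cebpe and Cebpa, and how much of the signal lay in cells that should not make it.

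Prg2 and Prg3 are neighbours on chromosome 2 in the GRCm38 build, with Prg2 at chr2:84980461-84983632 and Prg3 at chr2:84988215-84993886, both on the plus strand. They are 4582 bases apart and GENCODE M21 places 0 genes between them. Epx lies at chr11:87864000-87875536 on the minus strand, Ear6 at chr14:51853699-51854643 on the plus strand and Il5ra at chr6:106710357-106749037 on the minus strand. All 5 are annotated as protein-coding, and none overlaps another gene. Promoter sequence in RefSeq, on GRCm38.p6, was matched by symbol for 4 of the 5 members, and Prg2 had no entry. Each window runs from 250 bases before the start to 50 after it. The windows were searched on both strands for the letters bound by GATA factors, which were AGATAA with its variant AGATAG as well as TGATAA with its variant TGATAG, and for the C/EBP letters TTGCNNAA. The Prg3 and Il5ra windows are shown because they were the windows with a match, which is in capitals and belongs to the GATA letters. The Prg3 window is chr2:84987965-84988264 on the plus strand, and the Il5ra window is chr6:106748988-106749287 on the minus strand, each printed 5′ to 3′ along its gene.
Prg3: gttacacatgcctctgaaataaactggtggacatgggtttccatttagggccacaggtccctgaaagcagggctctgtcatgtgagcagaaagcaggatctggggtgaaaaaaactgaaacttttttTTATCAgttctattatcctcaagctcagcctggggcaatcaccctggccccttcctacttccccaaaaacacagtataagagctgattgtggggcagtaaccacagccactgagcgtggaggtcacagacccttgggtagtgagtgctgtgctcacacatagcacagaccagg
Il5ra: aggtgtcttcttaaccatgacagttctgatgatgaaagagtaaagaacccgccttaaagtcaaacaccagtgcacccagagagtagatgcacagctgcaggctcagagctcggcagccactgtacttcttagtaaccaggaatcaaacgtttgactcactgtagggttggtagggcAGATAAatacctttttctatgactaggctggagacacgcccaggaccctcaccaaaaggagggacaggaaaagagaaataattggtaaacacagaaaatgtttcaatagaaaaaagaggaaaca
The match in Prg3 begins 123 bases before the start and reads on the reverse strand, and that in Il5ra begins 74 bases before the start on the forward strand. The windows of Epx (chr11:87875487-87875786) and Ear6 (chr14:51853518-51853817) held none of these letters, and the C/EBP letters were in 0 of the 4 windows. Of 32851 promoter windows in the table, 29.8% held the GATA letters and 10.8% the C/EBP letters, so a match is a description of the sequence and not a binding site.

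The cell filter of the study kept 7645 of 8817 barcodes, with a median of 18696 unique molecular identifiers (UMIs, each 1 captured transcript) and a range of 1592 to 49991. A level is given as CPM, the UMIs of a gene per 1000000 UMIs of the cells named. With 1 library there is no replicate, no test was run and no p-value is given. Intervals are exact 95% intervals and cover counting error only. Transcripts were captured at their 3′ end, so levels are not compared between genes.

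Prg2 transcripts were concentrated in few cells. The library held 21752 Prg2 UMIs in the cells kept, or 143 CPM (interval 141 to 145). A Prg2 UMI was seen in 552 cells (7.22%), but 458 of these held a single UMI, 34 held 2 to 9, 19 held 10 to 99 and 41 held 100 or more. The 10 richest cells carried 50.6% of all Prg2 UMIs, and the highest cell carried 1963. Most cells with Prg2 were thus at the edge of detection, and most Prg2 UMIs lay in few cells.

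The other granule genes were held by the same small set of cells. Prg3 had 1403 UMIs in 190 cells (2.49% of the cells kept), of which 39 cells held 10 to 99 and 0 held 100 or more. Epx had 625 UMIs in 81 cells (1.06%), and 57.8% of them lay in 10 cells. Ear6 was rare, with 38 UMIs in 21 cells (0.275%) and at most 7 in a cell. Of the cells with 2 or more Epx UMIs, 43 of 43 also held Prg2 and 43 of 43 held Prg3, and of the 8 cells with 2 or more Ear6 UMIs, 8 held Prg2, Prg3 and Epx. In the other direction, 52 of 94 cells with 2 or more Prg2 UMIs held Epx and 16 of 94 held Ear6. Over the 7546 cells that could be reduced to 5000 UMIs, Pearson's r of log2(1 + UMIs) was 0.86 between Prg2 and Prg3, 0.78 between Prg2 and Epx and 0.37 between Prg2 and Ear6. These correlations are across cells of 1 library, rest on the few rich cells and are given as a description.

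Il5ra was spread more widely than the granule genes. It had 107 UMIs in 83 cells (1.09%), never more than 4 in a cell, and the 10 richest cells held 27.1% of them. Of its 15 cells with 2 or more UMIs, 12 held Prg2, 11 held Prg3 and 10 held Epx.

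Ear6 belongs to a family of near copies. In the annotated transcripts, its longest run of bases identical to Ear1 and to Ear2 was 58, in each case within the last 500 bases that 3′ reads come from, and 53 with Ear10. Reads that fit several genes are not counted by Cell Ranger, so the level of Ear6 is less certain than that of the other members. Prg2 and Prg3 shared at most 23 bases in a row.

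The cells that carry the signal were then taken as those with 10 or more UMIs of the 5 members summed, called member-rich below. There were 67 of them (0.876% of the cells kept, interval 0.680 to 1.11), and they held 96.7% of all member UMIs. Near this limit, 1 cell had 8 or 9 summed UMIs and 6 cells had 10 or 11. Because this limit uses the members themselves, their levels in these cells are a description. The member-rich cells held 97.5% of the Prg2 UMIs, 89.9% of Prg3, 594 of the 625 Epx UMIs and 86.8% of Ear6, but 43.9% of Il5ra. Prg2 ran from 0 to 1963 UMIs per cell with a median of 166, Prg3 from 0 to 64 with a median of 12, and Epx from 0 to 61 with a median of 3. Ear6 was seen in 16 of the 67 cells and Il5ra in 28, and both had a median of 0. In the richest cell the members made up 19.8% of 10181 UMIs, and in 19 cells they were above 5%.

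**Figure D1:**
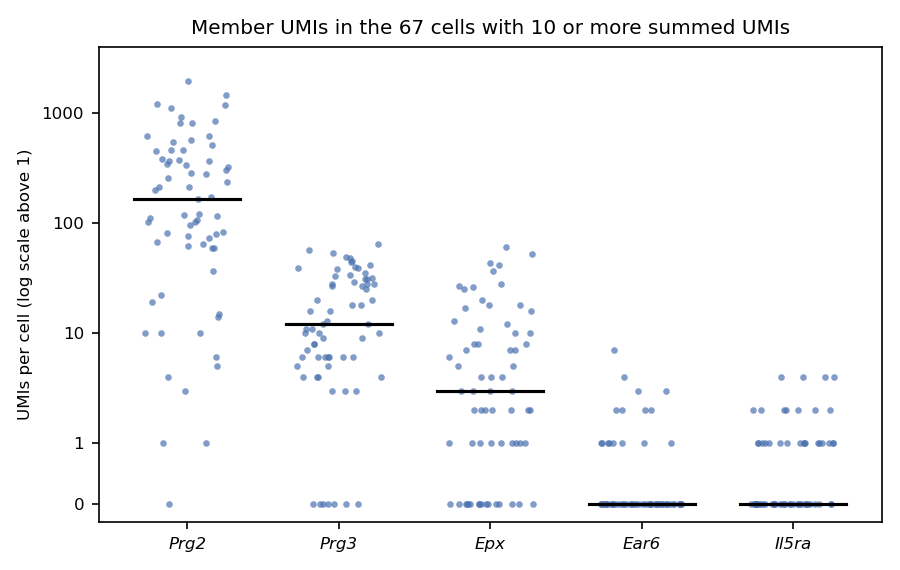
UMIs per cell of each member (vertical axis, logarithmic above 1) in the 67 cells with 10 or more summed member UMIs. Each point is a cell and the line is the median, which was 166 for Prg2, 12 for Prg3, 3 for Epx and 0 for Ear6 and Il5ra.

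The member-rich cells were not the deeper cells. Their median was 12786 UMIs against 18696 in all cells kept, and 10 of the 67 had under 5000. Scrublet, which looks for barcodes that hold a pair of cells, marked 5 of them, and 62 remained without its calls. Kit, the receptor used for the sort, stood at 88.7 CPM in member-rich cells (interval 71.3 to 109), where cells with no member UMI had 89.9 CPM (interval 88.3 to 91.5). Of the 7 other eosinophil genes listed, Ear1 had 164 UMIs in 13 member-rich cells, Ear2 had 44 in 7 and Siglecf, an inhibitory receptor of eosinophils, had 42 in 30. Ccr3, the eotaxin receptor that marks mature eosinophils, was at 0, as were the ribonuclease genes Ear10 and Ear14. Alox15, a lipoxygenase, had 4 UMIs in 2 cells. Ccr3 was thus not detectable at this depth, and the interval of its level reached 3.63 CPM.

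Clusters of the library were drawn without the 5 members and the 4 transcription factors in the principal components, so that a class does not rest on them. A class is called like a cell type when its marker genes led it. No cluster took the eosinophil name. The member-rich cells fell into 7 classes, 36 of them in the basophil or mast cell-like class (456 cells, led by Prss34 and Mcpt8) and 20 in the neutrophil lineage-like class (1392 cells). A further 6 fell in the HSC-like class, 2 in an unnamed cluster led by Igkc and Jchain, and 1 each in the erythroid-like, monocyte-like and multipotent or lymphoid-primed progenitor-like classes. The basophil or mast cell-like class held 78.1% of the Prg2 UMIs, 72.6% of Prg3, 68.0% of Epx, 55.3% of Ear6 and 44.9% of Il5ra. When the members and factors were put back, 45 of the 67 cells formed a cluster of 45 cells, which was led by Ear1, Ldhc and Ear2 and took the eosinophil-like name, and it held 85.6% of the member UMIs.

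The member-rich cells differed among themselves by class. The 36 in the basophil or mast cell-like class had Prg3 in 35 cells, at 1889 CPM (interval 1775 to 2009), and Cebpe in 35 cells. The 20 in the neutrophil lineage-like class held less Prg3, at 497 CPM (interval 424 to 580), and more Elane (neutrophil elastase), at 5938 CPM (interval 5676 to 6208) against 1666 CPM (interval 1559 to 1779). Elane was not left out of the clustering and is a marker that names the class, so its difference follows in part from the class. Elane stood at 11159.8 CPM (interval 11122 to 11198) in the other cells of the neutrophil lineage-like class. The 6 in the HSC-like class were shallow, with a median of 3114 UMIs against 8800.5 in the remaining cells of that class. They held 2 UMIs of the stem cell gene Hlf, or 89.7 CPM (interval 10.9 to 324), where the remaining cells stood at 422 CPM (interval 409 to 436), and 5 of the 6 held Cebpe. The stem cell genes Mecom, at 89.7 CPM (interval 10.9 to 324) against 150.1 CPM, and Procr, at 44.8 CPM (interval 1.14 to 250) against 99.6 CPM, did not differ beyond counting error. Of these 3 stem cell genes, only Hlf was below the remaining cells beyond counting error.

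Within the rich cells, Prg2 and Prg3 did not keep to a fixed ratio. In 8 cells, a group chosen after the values were seen, Prg3 was at least as high as Prg2, with 105 Prg3 and 46 Prg2 UMIs together. All 8 held Cebpe, Elane, Mpo (myeloperoxidase) and Cpa3 (a mast cell and basophil carboxypeptidase), whereas Epx was in 2 of the 8 and Ear6 in 0. More widely, 17 cells held 2 or more Prg3 UMIs with under 10 Prg2, and 13 of these lay in the neutrophil lineage-like class. Cebpe stood at 426 CPM (interval 366 to 492) in these 17 cells, Elane at 8477 CPM (interval 8205 to 8756), and Epx had 1 UMI. In the 40 cells with 2 or more Prg3 and 100 or more Prg2 UMIs, Cebpe was at 620 CPM (interval 557 to 688), Elane at 2609 CPM (interval 2478 to 2746) and Epx at 912 CPM (interval 835 to 994), with Epx in 37 of the 40. Elane was thus lower and Epx higher where Prg2 was high, and Cebpe was in 16 of the 17 and 40 of the 40 cells. The 17 cells were deeper, with a median of 24507 UMIs against 12567.5, and the part of depth in this difference was not tested.

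**Figure D2:**
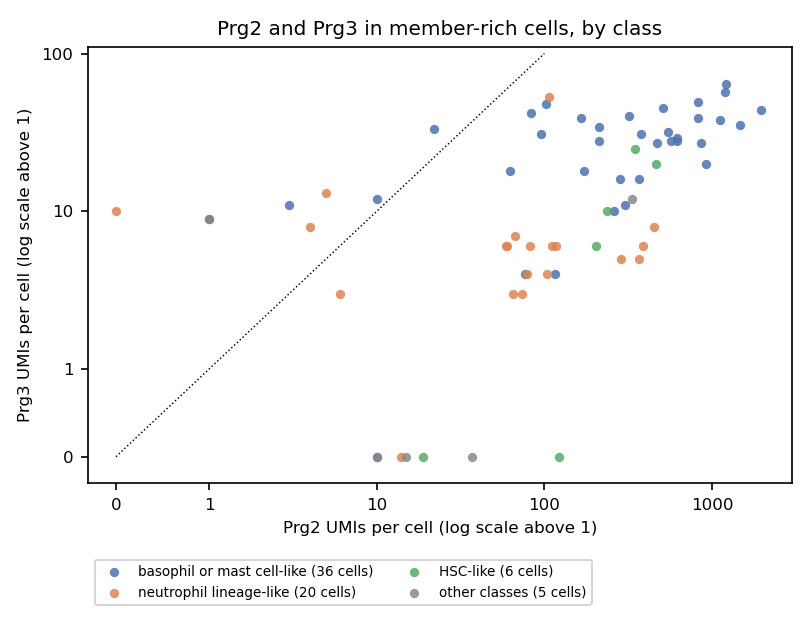
Prg2 UMIs (horizontal) and Prg3 UMIs (vertical) in each of the 67 member-rich cells, on axes that are logarithmic above 1, coloured by class; the dotted line marks equal counts. The cells of the basophil or mast cell-like class reach 64 Prg3 UMIs, and 8 cells lie on or above the line.

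In 7 cells, the reverse held, with 10 or more Prg2 UMIs and 0 Prg3. They held 227 Prg2 UMIs together. Scrublet marked 2 of the 7 cells, and Cebpe was in 3 of the 7. A pair of them lay in the cluster led by Igkc and Jchain, with 15 and 10 Prg2 UMIs, 0 UMIs of the other members and 0 of Cebpe.

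Cebpe was the factor that went with the members. In member-rich cells it had 584 UMIs in 62 of 67 cells, or 575 CPM (interval 530 to 624), with a median of 7 and a highest value of 31 UMIs per cell. To compare shares at equal depth, each cell was thinned at random to 5000 UMIs, which left 57 member-rich cells and 7546 cells in all. At that depth Cebpe was seen in 87.7% of member-rich cells (interval 76.3 to 94.9) and in 9.88% of cells with no member UMI (interval 9.18 to 10.6). Without thinning these shares were 92.5% and 18.6%. Cebpe was also common in neutrophil lineage-like cells that were not member-rich, in 47.1% at 5000 UMIs (interval 44.4 to 49.8) and 76.1% without thinning. The erythroid-like class, where Cebpe should be missing, gave 0.0883% at 5000 UMIs and 1.67% without thinning, at a median of 33483 UMIs against 12786 in the member-rich cells. The share climbed with the members, from 14.4% in cells with 1 summed member UMI to 27.9% at 2 to 9, 76.2% at 10 to 99 and 94.4% at 100 or more.

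Gata1, the factor of the erythroid, megakaryocyte and eosinophil lineages, was sparse in the same cells. It had 32 UMIs in 21 member-rich cells, at most 5 in a cell, or 31.5 CPM (interval 21.6 to 44.5). At 5000 UMIs it was seen in 15.8% of them (interval 7.48 to 27.9) and in 12.3% of cells with no member UMI (interval 11.6 to 13.1), a difference within counting error. Without thinning the shares were 31.3% and 27.2%. In erythroid-like cells Gata1 stood at 122 CPM (interval 119 to 126) and in the neutrophil lineage-like class, which should lack it, at 2.23 CPM (interval 1.73 to 2.83), with 0.658% of those cells positive at 5000 UMIs and 4.30% without thinning. The Gata1 level of member-rich cells lay between these classes.

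Gata2 and Cebpa were not raised over the library. Gata2 was seen in 33 member-rich cells, at 100.5 CPM (interval 81.9 to 122), against 92.8 CPM (interval 91.2 to 94.5) in cells with no member UMI. Its share at 5000 UMIs was 26.3% (interval 15.5 to 39.7), against 2047 of 6812 of those cells, and 49.3% and 44.3% without thinning. Cebpa had 29 UMIs in 24 member-rich cells, or 28.6 CPM (interval 19.1 to 41.0), against 43.6 CPM (interval 42.5 to 44.7). Its share at 5000 UMIs was 14.0% (interval 6.26 to 25.8) against 17.3%, and without thinning 35.8% against 38.7%. Against the background of erythroid-like cells, where Cebpa was seen in 0.794% at 5000 UMIs and 4.85% without thinning, both shares were higher.

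**Figure D3:**
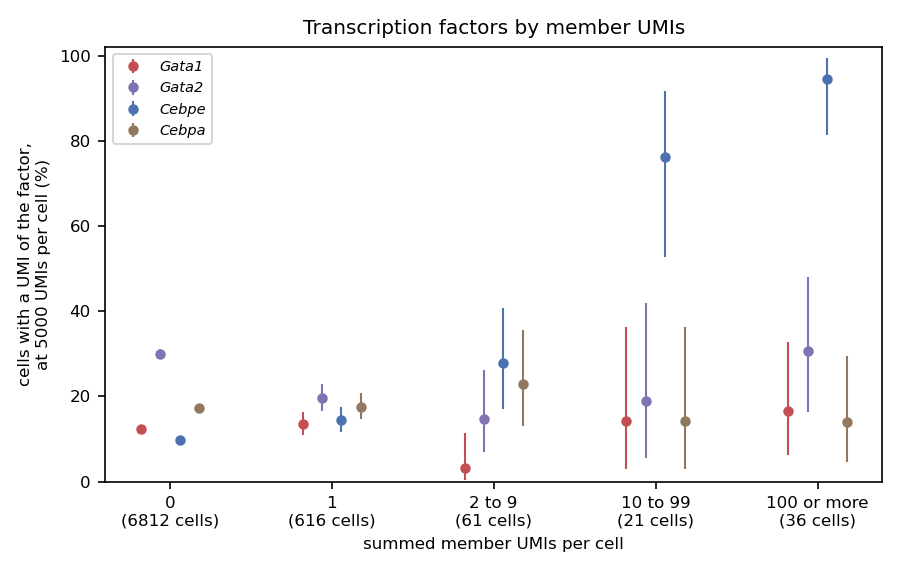
Share of cells with a UMI of Gata1, Gata2, Cebpe or Cebpa (vertical axis, percent, with exact 95% intervals) after thinning to 5000 UMIs, by summed member UMIs per cell (horizontal axis, with the number of cells). Cebpe climbs from 9.88% at 0 member UMIs to 94.4% at 100 or more, and the intervals of Gata1 and Cebpa at 100 or more hold their shares at 0.

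A GATA factor and Cebpe were seen in the same cell more often among member-rich cells than among the others. By itself, Cebpe was in 87.7% of member-rich cells at 5000 UMIs, Gata1 in 15.8% and Gata2 in 26.3%. The joint shares below are near what these single shares give. They restate the high Cebpe share, as Gata1 and Gata2 by themselves were not raised over the library. At 5000 UMIs, Gata1 and Cebpe were seen together in 8 of 57 member-rich cells (14.0%, interval 6.26 to 25.8) and in 7 of 7489 other cells (0.0935%, interval 0.0376 to 0.192). Without thinning the counts were 20 of 67 and 129 of 7578. Gata2 and Cebpe were together in 13 of 57 member-rich cells (22.8%, interval 12.7 to 35.8) and in 50 of 7489 other cells (0.668%, interval 0.496 to 0.879), and without thinning in 30 of 67 and 286 of 7578. Cebpe and Cebpa were together in 10.5% of member-rich cells (interval 3.96 to 21.5) and 2.46% of the others (interval 2.12 to 2.83). Among pairs without Cebpe, Gata1 and Gata2 were together in 3.51% (interval 0.428 to 12.1) and 4.39%, and Gata2 and Cebpa in 7.02% (interval 1.95 to 17.0) and 4.74%, both within counting error. Gata1 and Cebpa were together in 5.26% (interval 1.10 to 14.6) and in 75 of 7489 others (interval 0.789% to 1.25%), and without thinning in 14.9% (interval 7.40 to 25.7) and 5.07% (interval 4.58 to 5.59), where the intervals did not overlap. Of the 67 cells without thinning, 2 held all 4 factors, 24 held 3, 21 held 2, 18 held 1 and 2 held 0.

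The members did not go with Cebpe equally. Among cells with 2 or more Prg3 UMIs, 68 of 70 held Cebpe, and among cells with 2 or more Epx UMIs, 43 of 43 did. Among cells with 2 or more Prg2 UMIs it was 68 of 94, among cells with 2 or more Il5ra UMIs 11 of 15, and with 2 or more Ear6 UMIs 7 of 8. At 5000 UMIs the share was 87.1% (interval 76.1 to 94.3) for Prg3 and 62.7% (interval 51.3 to 73.0) for Prg2. Cells with 1 or more Prg2 UMIs, most of which held a single UMI, had Cebpe in 27.4% (19.7% at 5000 UMIs), whereas cells with 1 or more Prg3 UMIs had it in 71.1% (48.9% at 5000 UMIs). Of the 190 cells with Prg3, 71 were neutrophil lineage-like cells that were not member-rich. Cells of that class that were not member-rich had Cebpe in 76.1% (47.1% at 5000 UMIs). The part of class in the contrast of Prg2 and Prg3 was not tested.

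The member-rich cells were next set against the classes that held most of them, each without its member-rich cells, over genes with 50 or more UMIs in both sides together. A gene was counted as higher or lower at a 4-fold difference. Against the 420 basophil or mast cell-like cells, 40 of 8572 genes were higher (0.467%) and 169 lower (1.97%), with a median ratio over all genes of 0.967. Against the 1372 neutrophil lineage-like cells, 163 of 10416 genes were higher (1.56%) and 69 lower (0.662%), with a median of 1.11. The member-rich cells were chosen on the members alone, so the lists below describe the chosen cells. Of the members themselves, 4 of 5 could be compared and 4 were higher against both classes, which the choice of cells fixes.

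The 4 factors split by class. Against the basophil or mast cell-like class, Cebpe was 59.5-fold higher (interval 45.16 to 79.7), Gata2 was at 0.146 of its level (interval 0.119 to 0.177) and Cebpa at 0.122 (interval 0.0811 to 0.175), while Gata1, at 0.926 (interval 0.617 to 1.35), did not differ beyond counting error. Against the neutrophil lineage-like class, Gata1 was 14.1-fold (interval 8.97 to 21.8) and Gata2 9.37-fold higher (interval 7.42 to 11.7), and Cebpe was 3.81-fold higher (interval 3.49 to 4.15), short of 4-fold. Cebpa was at 0.473 of its level there (interval 0.316 to 0.682). So 1 of 4 was higher and 2 lower against the former class, with a median ratio of 0.536, and 2 of 4 were higher and 0 lower against the latter, with a median of 6.59.

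The 67 member-rich cells are a pool, with 36 in the basophil or mast cell-like class and 20 in the neutrophil lineage-like class. Over this pool, most granule genes named here for the neighbouring lineages stood between their levels in both classes. Ctsg (cathepsin G) did not, at 0.741 (interval 0.710 to 0.773) of the basophil or mast cell-like level and 0.409 (interval 0.393 to 0.426) of the neutrophil lineage-like level. Of the 8 basophil and mast cell genes, 6 were lower and 0 higher against the basophil or mast cell-like class, with a median ratio of 0.146. Mcpt8, a basophil protease, was at 0.0717 of its level (interval 0.0664 to 0.0772) and Prss34 at 0.0367 (interval 0.0338 to 0.0397), but Hdc, which makes histamine, was at 0.744 (interval 0.660 to 0.837). Gzmb (granzyme B) had 0 UMIs in the member-rich cells. Against the neutrophil lineage-like class, 5 of the 6 compared were higher (median 16.3), Mcpt8 at 14.9-fold (interval 13.6 to 16.3) and Fcer1a, a chain of the IgE receptor, at 46.1-fold (interval 36.7 to 58.2). The 36 rich cells of the basophil or mast cell-like class held 634 of the 695 Mcpt8 UMIs, with 276 in 1 cell. In the 20 of the neutrophil lineage-like class, Mcpt8 was at 111 CPM (interval 77.4 to 153), against 46.0 CPM in its other cells. Cpa3 was also higher in those 20, at 344 against 44.4 CPM. Prss34 was not, at 24.6 CPM (interval 10.6 to 48.4) against 39.6 CPM. Of the 10 neutrophil granule genes, 6 could be compared with the basophil or mast cell-like class, and 3 were higher and 0 lower (median 3.18), Elane at 9.95-fold (interval 9.38 to 10.6), Prtn3 (proteinase 3) at 4.16-fold (interval 3.94 to 4.40) and S100a8 at 31.2-fold (interval 17.8 to 58.2). Of the 82 S100a8 UMIs, all lay in 12 cells. Against the neutrophil lineage-like class 3 of 8 were lower, Prtn3 at 0.232 (interval 0.222 to 0.242), S100a8 at 0.110 (interval 0.0876 to 0.137) and S100a9 at 0.0893 (interval 0.0446 to 0.160), and 0 were higher (median 0.340). Ltf, Camp and Ngp, which fill the late neutrophil granules, had 0 UMIs in the member-rich cells.

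The other eosinophil genes could be compared for few of the 7. Ear1 was at least 312-fold higher than in the basophil or mast cell-like class, which had 0 UMIs (against a floor of 3 UMIs over the class), and had 1 UMI in the neutrophil lineage-like class, a ratio of 4849 (interval 858 to 192680). Siglecf was 1.54-fold higher than in the former (interval 1.06 to 2.17) and 3.33-fold than in the latter (interval 2.36 to 4.59), short of 4-fold in both. Alox15 was lower than in the basophil or mast cell-like class, at 0.0760 of its level (interval 0.0206 to 0.197), and that class held 300 Alox15 UMIs. Ear2 had 44 UMIs against 1 in each class and fell under the limit of 50. Among genes compared, 1 of 3 was higher and 1 lower against the basophil or mast cell-like class (median 1.54), and 1 of 2 was higher against the neutrophil lineage-like class.

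The receptor list held the chain that pairs with Il5ra and chains of the related interleukin-3 and GM-CSF receptors. Csf2rb, the common beta chain that transmits the interleukin-5 signal, had 66 UMIs in 35 of the 67 cells, or 65.0 CPM, at 0.390 of the level of the basophil or mast cell-like class (interval 0.299 to 0.5003) and 2.18-fold that of the neutrophil lineage-like class (interval 1.67 to 2.80). Its sister Csf2rb2, which serves interleukin-3, had 3 UMIs and was the 1 of 4 genes that was lower against the basophil or mast cell-like class, at 0.0851 (interval 0.0174 to 0.252). The GM-CSF receptor alpha chain Csf2ra was at 1.58 against that class (interval 1.14 to 2.17) and the interleukin-3 receptor alpha chain Il3ra at 0.386 (interval 0.281 to 0.519), and the median of the 4 was 0.388. Of the 3 compared with the neutrophil lineage-like class, 0 differed by 4-fold (median 1.55).

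Of 14 other transcription factors, 13 could be compared with the basophil or mast cell-like class, where 1 was higher and 2 were lower (median 1.01). Gfi1, a repressor of the granulocyte lineage, was 4.40-fold higher (interval 2.56 to 7.48), and Id1 and Id2, which block other factors from DNA, were at 0.143 (interval 0.0779 to 0.243) and 0.122 (interval 0.0249 to 0.365). Against the neutrophil lineage-like class 4 of 14 were higher and 0 lower (median 1.08). These were Zfpm1, the partner FOG-1 of GATA factors, at 4.31-fold (interval 3.04 to 5.98), Gfi1b at 5.31-fold (interval 2.77 to 9.45), Trib1 at 5.85-fold (interval 4.02 to 8.32) and the erythroid factor Klf1 at 4.47-fold (interval 2.68 to 7.10). Gfi1 was at 0.492 there (interval 0.323 to 0.718).

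The progenitor and cycle genes differed little. Of 5 progenitor surface genes, 3 could be compared with the basophil or mast cell-like class and 0 differed by 4-fold (median 1.22), with Kit at 1.15 (interval 0.909 to 1.45) and Cd34 at 1.22 (interval 0.989 to 1.48). Against the neutrophil lineage-like class 1 of 5 was higher (median 1.80), Ly6a at 6.76-fold (interval 3.66 to 11.8), from 16 UMIs in 3 cells. Of 4 cycle genes 0 differed by 4-fold from either class (medians 0.932 and 1.39), and Mki67 was at 0.768 (interval 0.672 to 0.874) and 2.09 (interval 1.84 to 2.37).

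The genes with the pattern most like that of the members were sought over 13467 genes in the 7546 thinned cells, by Pearson's r of log2(1 + UMIs). Ldhc, a lactate dehydrogenase chain best known from sperm, came first for Prg2 (r = 0.54), Prg3 (r = 0.58), Epx (r = 0.57) and Il5ra (r = 0.27). It had 394 UMIs, of which 188 (47.7%) lay in member-rich cells, in 39 of the 67. Ear1 came second for all 5 members, with r between 0.22 and 0.41, and 164 of its 172 UMIs (95.3%) lay in member-rich cells. Cebpe was among the leading 5 for Prg2 (r = 0.28), Prg3 (r = 0.31) and Epx (r = 0.23). Arsb, a lysosomal sulfatase, Rnase12, Ear2 and Gm8113 also entered the leading 5 of a member, and for Ear6 the first was Muc6 (r = 0.28, from 52 UMIs). For Il5ra, Tnfrsf17 (BCMA, a receptor of plasma cells, r = 0.22) and the immunoglobulin genes Igkc (r = 0.14) and Iglc3 (r = 0.14) followed Ear1. These values are across sparse cells of 1 library that share a sort and a depth, and the weaker of them are no finding.

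Outside the member-rich cells, Prg2 was spread evenly over the large classes, but was higher in the small cluster led by Igkc and Jchain, described below. It had 542 UMIs in the 7578 other cells, and its level was nearly the same in every large class, from 3.23 CPM (interval 2.68 to 3.86) in the erythroid-like class through 3.30 CPM (interval 2.68 to 4.02) among neutrophil lineage-like cells to 3.47 CPM (interval 2.79 to 4.27) for monocyte-like cells. HSC-like cells stood at 3.35 CPM (interval 2.28 to 4.75), and the basophil or mast cell-like cells that were not rich stood at 3.28 CPM (interval 1.98 to 5.13). The share of cells with a Prg2 UMI followed depth, at 10.2% in erythroid-like cells (median 33483 UMIs) and 2.81% in HSC-like cells (median 8800.5 UMIs), and was 1.15% and 1.21% once both were thinned to 5000 UMIs. Erythroid-like cells should lack the gene, so their level is used below as the background. Whether single Prg2 UMIs came from free RNA in the suspension or from expression was not tested.

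Prg3 did not follow that background. Neutrophil lineage-like cells outside the member-rich cells held it at 2.73 CPM (interval 2.17 to 3.39), which was 20.3-fold over erythroid-like cells (interval 8.35 to 64.1), which had 5 UMIs, or 0.135 CPM. In monocyte-like cells it was 10.1-fold over them (interval 3.95 to 33.1). Prg2 in the same 2 classes was 1.02-fold (interval 0.774 to 1.34) and 1.07-fold (interval 0.807 to 1.42) over erythroid-like cells. Within the neutrophil lineage-like class, the cluster led by S100a9 and S100a8 held 39 Prg3 UMIs in 32 of 461 cells, at most 3 in a cell and 29.1-fold over erythroid-like cells (interval 11.4 to 94.5). The cluster led by Cebpe and Elane held 43 in 39 of 911 cells, 15.9-fold over them (interval 6.32 to 51.5). After thinning, 1.39% of neutrophil lineage-like cells held Prg3 against 0.0883% of erythroid-like cells, and without thinning 5.17% and 0.441%. HSC-like cells had 1 Prg3 UMI and basophil or mast cell-like cells that were not rich had 1.

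**Figure D4:**
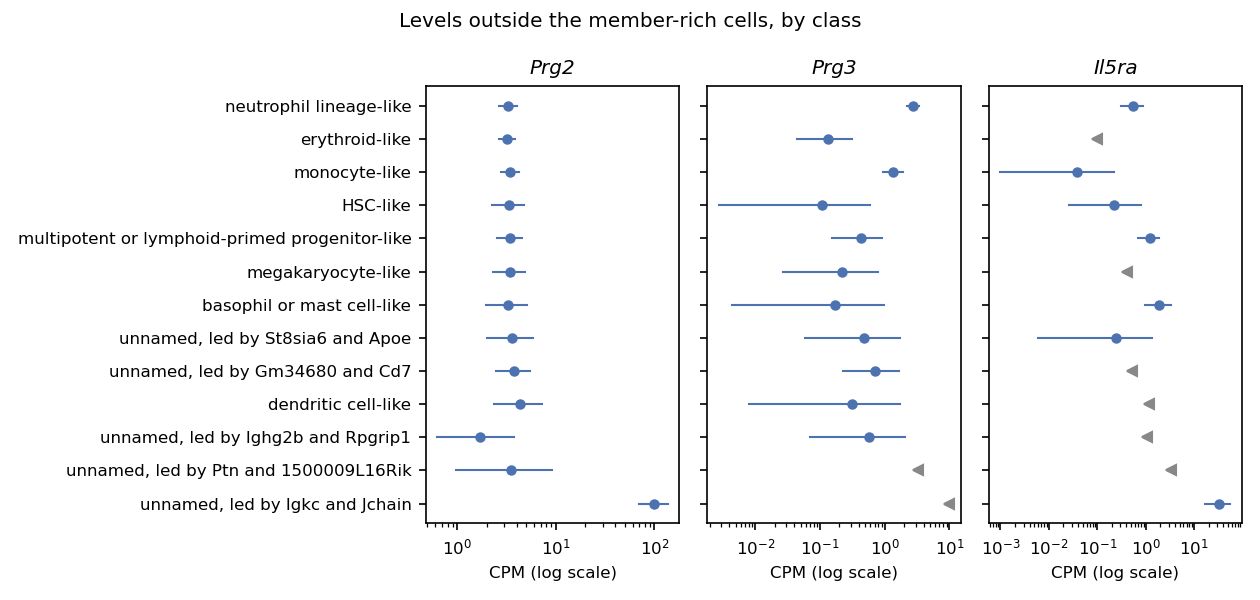
Levels of Prg2, Prg3 and Il5ra (horizontal axes, CPM on a log scale) in each class without its member-rich cells. Points have exact 95% Poisson intervals, grey triangles mark the upper end of the interval for classes with 0 UMIs, and the T or NK cell-like class of 43 cells is left out. Prg2 lies between 1.72 and 4.36 CPM in all classes shown but the cluster led by Igkc and Jchain, whereas Prg3 is highest in neutrophil lineage-like cells.

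The make-up of the member UMIs gave the same contrast. Free RNA from a single source would keep its genes in 1 ratio in every class. Its make-up was not measured here, and the source of the UMIs in each class was not tested. In member-rich cells Prg2 made up 91.6% of the member UMIs (interval 91.3 to 92.0), Prg3 5.45% (interval 5.16 to 5.75) and Epx 2.57%. In erythroid-like cells Prg2 made up 91.6% (interval 85.5 to 95.7) and Prg3 3.82% (interval 1.25 to 8.68), and in HSC-like cells Prg2 made up 91.2% (interval 76.3 to 98.1). In barcodes that the cell filter removed and that held under 10 member UMIs, Prg2 was 85.3% (interval 77.3 to 91.4) and Prg3 5.50% (interval 2.05 to 11.6). The intervals of erythroid-like and HSC-like cells held the Prg2 and Prg3 shares of the member-rich cells, but not those of every member. Ear6 in erythroid-like cells was 1.53% (interval 0.185 to 5.41) against 0.143%, from 2 UMIs. Il5ra in HSC-like cells was 5.88% (interval 0.720 to 19.7) against 0.203%, also from 2 UMIs. In the removed barcodes the Prg3 interval held the member-rich share, whereas Prg2 lay just below the member-rich share. Il5ra there, at 4.59% (interval 1.51 to 10.4), lay above 0.203%. In neutrophil lineage-like cells Prg2 was 48.3% (interval 41.3 to 55.4) and Prg3 40.0% (interval 33.2 to 47.1), and in monocyte-like cells Prg3 was 26.5% (interval 19.2 to 34.9), outside the interval of the member-rich cells. Prg2 was also below the member-rich share in basophil or mast cell-like cells that were not rich, at 48.7% (interval 32.4 to 65.2). It was 67.1% (interval 55.1 to 77.7) in multipotent or lymphoid-primed progenitor-like cells.

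**Figure D5:**
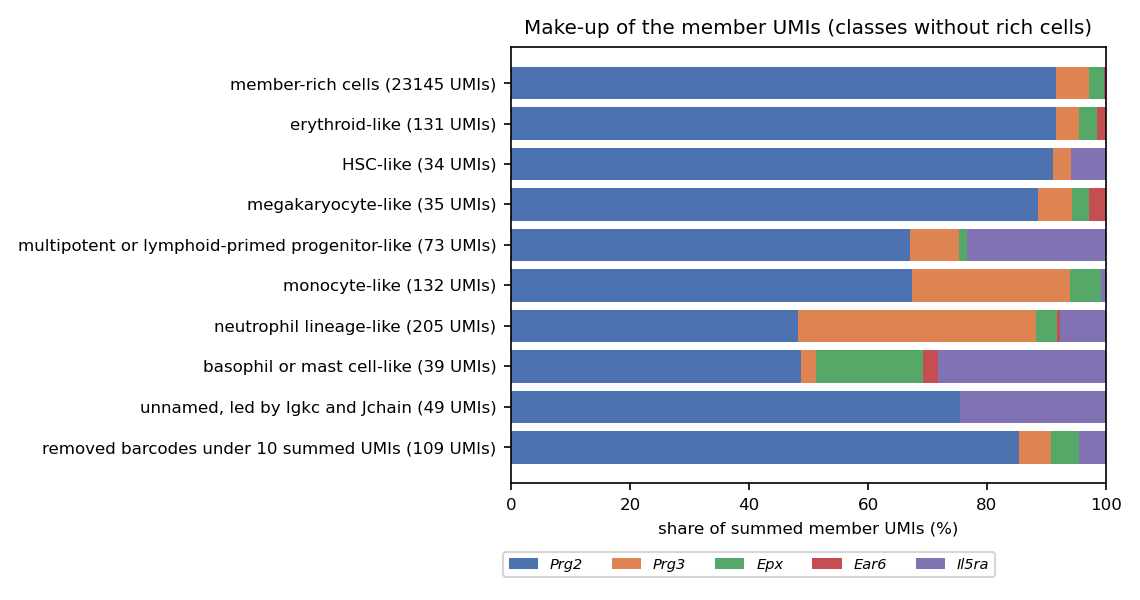
Share of each member in the summed member UMIs (horizontal axis, percent) for the member-rich cells, for 8 classes without them and for removed barcodes with under 10 member UMIs, with the summed UMIs in brackets. Erythroid-like and HSC-like cells have the Prg2 share of the member-rich cells, near 91%, and neutrophil lineage-like cells have 48.3%.

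Il5ra stood apart from the background in other classes. Erythroid-like cells had 0 Il5ra UMIs, and 3 UMIs there would be 0.0808 CPM. The multipotent or lymphoid-primed progenitor-like class held 17 UMIs in 16 of 814 cells, or 1.198 CPM (interval 0.698 to 1.92), at least 14.8-fold higher against that floor. Basophil or mast cell-like cells that were not rich held 11 in 10 of 420 cells, or 1.90 CPM (interval 0.949 to 3.40), at least 23.5-fold higher, and neutrophil lineage-like cells held 16, or 0.533 CPM (interval 0.305 to 0.866), at least 6.60-fold higher. Epx was also above erythroid-like cells in the basophil or mast cell-like class, with 7 UMIs against 4, an 11.2-fold higher level (interval 2.85 to 52.3).

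A small cluster of 21 cells, led by the immunoglobulin genes Igkc and Jchain, held Prg2 and Il5ra without the other members. It stays unnamed by the marker rule. Outside its 2 member-rich cells, 12 of 19 cells held a Prg2 UMI, with 37 UMIs in all and at most 6 in a cell. That was 99.2 CPM (interval 69.8 to 137), 30.7-fold over erythroid-like cells (interval 20.6 to 44.7). Il5ra, which is also known from B-1 cells, was in 9 of the 19 cells with 12 UMIs, or 32.2 CPM (interval 16.6 to 56.2). Prg3, Epx, Ear6 and Cebpe were at 0 in these 19 cells, where the interval of a level of 0 reached 9.89 CPM. After thinning, 36.8% of the 19 cells held Prg2 and 21.1% held Il5ra, against 63.2% and 47.4% without thinning, at a median of 17441 UMIs. Igkc alone stood at 381721 CPM in these cells, and its share of the total lowers the CPM of every other gene. The size of this lowering in their Prg2 level was not tested.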

How the data were processed

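The authors deposited 1 filtered matrix of raw UMI counts per gene and barcode, made from a 10x Genomics library with Cell Ranger 6.0.2 against mm10, per the labels and the submitters' processing notes. The labels' extraction text describes a bulk RNA kit, which was not used to interpret the counts. From the deposited counts, barcodes were kept between 1000 and 50000 UMIs, between 1000 and 6500 genes and below 7% mitochondrial UMIs (all limits exclusive), after the study's methods. They were normalised with SCTransform (Seurat 5.3.0, sctransform 0.4.2, R 4.3.3) with 3000 variable genes, regressing the mitochondrial share and then also the cell cycle difference, and clustered on 50 components at resolution 0.8. The 5 members and 4 factors were left out of the components. Scrublet (scanpy 1.11.5, expected rate 6%) marked 268 cells (3.51%), which were kept in the main values and removed in an alternative.

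A cluster was named from marker lists where its score reached 0.5, 3 or more markers stood at 10 CPM and 1.5-fold over other cells, its leading 10 genes held more of its own than of other markers, and 20% or fewer of its cells were doublet calls. These limits were set after the clusters were seen. Levels are summed UMIs as CPM with exact Poisson intervals, shares have Clopper-Pearson intervals, and ratios have exact conditional binomial intervals (Python 3.11.15, numpy 2.4.6, scipy 1.17.1). UMI floors are 3 counts over the group. Cells were thinned to 5000 UMIs without replacement, which left out 99 shallower cells, or to 3000 as an alternative. Of these steps, the ratio and its interval were tested on simulated data. Genes named are the members, the factors, fixed lists and the 5 genes most correlated with each member among genes with 50 or more UMIs in 20 or more cells. The members and lists were chosen with earlier results of these data known. Gene positions are from GENCODE M21 on GRCm38; the annotation release behind the counts may differ from it. Alternatives changed the cell filter, the limit for member-rich cells, doublets, clustering and thinning.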

Additional observations from a re-analysis of the deposited data

Results flagged for a closer look

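Barcodes that the cell filter removed are outside the values above, and they held 3162 UMIs of the 5 members. Of the 1172 removed barcodes, 22 held 10 or more member UMIs (1.88%, exact interval 1.18 to 2.83). They were small, with a median of 1875 UMIs and 967 genes. Of the 22, 13 had 1000 genes or fewer and 8 were at or over 7% mitochondrial UMIs, while 1 had 50000 UMIs or more.

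Ear6 was the member that the filter touched most, with 20 of its 58 UMIs in removed barcodes. In the 22 barcodes it stood at 127 CPM (interval 77.6 to 196), against 32.5 CPM (interval 22.4 to 45.7) in the 67 member-rich cells kept. Ear2 was also higher there, at 229 CPM (interval 160 to 317) against 43.3 CPM (interval 31.5 to 58.2), and Ear1 or Ear2 was in 17 of the 22 barcodes and in 17 of the 67 cells kept. Il5ra stood at 12.7 CPM (interval 1.54 to 45.9) against 46.3 CPM (interval 34.0 to 61.6), and Cebpe at 362 CPM (interval 274 to 469) against 575 CPM (interval 530 to 624). Ccr3 was at 0 in both. The part of low depth and of the mitochondrial share in these differences was not tested.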

How the results depend on the processing

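The count of member-rich cells ran from 50 under a stricter filter to 89 over all barcodes, against 67. The share of member UMIs in the cluster richest in them was 77.4%, 69.1% with log-normalised counts and 85.6% with members and factors kept in. Without thinning, the shares of member-rich cells with Gata1, Gata2 and Cebpa were 31.3%, 49.3% and 35.8% in place of 15.8%, 26.3% and 14.0%, and Cebpe was 76.2% at 3000 UMIs in place of 87.7%. In erythroid-like cells Prg2 was 10.2% without thinning in place of 1.15%, and Prg3 was 0% at 3000 UMIs in place of 0.0883%. Alternatives chosen after seeing the data moved the Prg2 share of member UMIs from 91.6% to 91.1%, without the richest cell or without doublet calls, and Prg3 from 5.45% to 5.76% without the richest cell. In all, 57 alternative values stayed within the interval or 1.5 times of the count, and 11 moved beyond it. No paired analysis was possible because there was 1 library. For the same reason no spread between replicates could be given, and all intervals cover counting error only.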

Other observations

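Cell cycle and lineage genes were followed over the same steps of summed member UMIs. Mki67, a mark of cycling cells, was seen at 5000 UMIs in 50.5% of the 6812 cells with no member UMI (exact interval 49.3 to 51.6) and in 36.1% of the 36 cells with 100 or more (interval 20.8 to 53.8), so the shares did not differ beyond counting error. Without thinning, its level was 380.4 CPM (interval 377 to 384) in the former and fell short of that in the latter, at 201 CPM (interval 167 to 241). Spi1, which encodes the myeloid factor PU.1, was at 143 CPM (interval 141 to 145) in cells with no member UMI and at 202 CPM (interval 175 to 232) in the 67 member-rich cells, at shares of 44.9% and 50.9% after thinning (interval 37.3 to 64.4 for the latter). The stem and progenitor marker Cd34 was at 106 CPM (interval 104 to 107) in the former and at 117 CPM (interval 97.1 to 140.3), a difference within counting error.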
